A study of Homo sapiens with 7 samples.

Results

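The mitochondrial ribosomal protein genes were taken as every gene of the deposited expression table whose symbol is MRPL or MRPS followed by a number and, in a few cases, a letter. The pattern gave 76 of 16686 gene symbols, 47 named for the large subunit (MRPL) and 29 for the small subunit (MRPS). RNA-seq covered 7 libraries made from N/TERT2G, a human keratinocyte line immortalized with telomerase. Pooled siRNAs to both YAP1 and TAZ (the product of WWTR1) were present in 4 of them, siYT A to D. The other 3, siCON A to C, received a non-targeting siRNA. Both siRNAs were used at 8 pmol per cm2, no other treatment is given in the labels, and RNA was collected 48 h after transfection. The model is a transient knockdown in a single immortalized line grown in EpiLife medium with a keratinocyte growth supplement. The labels tell replicates apart only by letter, so p-values measure the spread between these libraries, which may be technical.

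Mitochondria keep a ribosome of their own, which makes the few proteins encoded by mitochondrial DNA, all of them subunits of the respiratory chain and ATP synthase. Its protein parts are encoded in the nucleus, made in the cytosol and imported. They join a large subunit, which holds the peptidyl transferase centre and the exit tunnel, or a small subunit, which decodes the mRNA. Some have homologues in the bacterial ribosome and others are found only in mitochondria. YAP1 and TAZ are transcriptional co-activators that bind DNA through TEAD factors and are restrained by the Hippo kinases. In these cells the comparison asks what the combined loss of YAP1 and TAZ does to RNA levels.

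The libraries held approximately 20713247 to 23857599 reads, estimated from the total and the lowest value of each. Values are a TMM-normalized signal close in scale to CPM (counts per 1e6 reads) and are not divided by gene length. YAP1 measured 65.2, 64.5, 76.2 and 68.1 in siYT A to D, against 231, 258 and 243 in siCON A to C, and WWTR1 fell by 2.59 on the log2 scale. A principal component with 88.4% of the variance separated siYT from siCON, and the next, with 3.70%, set siYT A and B apart from siYT C and D. All 8 keratinocyte markers were in the table, with a summed signal of 38778 to 42054 in siYT and 36245 to 37327 in siCON. The 5 of 6 fibroblast markers in the table summed to 186 to 193 in siYT and 227 to 256 in siCON, and their part in the results was not tested.

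RefSeq promoter windows (GRCh38.p14, 250 bases before to 50 after the gene start) were matched by symbol for 67 of the 76 genes. They were searched on both strands for short motifs of factors known to drive genes of mitochondrial proteins, and for the TEAD motif. The ETS/GABPA motif CCGGAAG lay in 28 of 67 windows (41.8%), against 19.9% of the 9334 windows of genes tested and 10.7% of all 27305. The YY1 motif AAGATGGC lay in 20 (29.9%), against 5.72% of windows of genes tested and 3.03% of all. In 15 of 21 cases the YY1 match began at or after the gene start. At least 1 of the 2 motifs was present in 40 windows (59.7%), against 24.2% of genes tested, and both in 8 (11.9%), against 1.40%. In these 8 the ETS/GABPA and YY1 matches did not overlap. The NRF1 core GCGCATGC was in 6 windows (8.96%, against 5.59% of genes tested and 3.27% of all), the E-box CACGTG in 6 (8.96%, against 10.1% and 7.43%) and the TEAD motif GGAATG in 10 (14.9%, against 10.8% and 14.0%). A match is a run of letters, not a shown binding site.

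The windows below are those of the gene with the largest decrease, of the 3 called genes that hold both an ETS/GABPA and a YY1 match, and of the gene with the largest increase. Capitals mark matches, and every window reads 5′ to 3′ on the strand of the gene. MRPS17 lies at chr7:55951627-55951926 (+) and held no match. MRPS12 (chr19:38930694-38930993, +), MRPS18A (chr6:43687742-43688041, -) and MRPL51 (chr12:6493213-6493512, -) held ETS/GABPA and YY1 matches, MRPL51 with ETS/GABPA on either strand. MRPL49 (chr11:65121933-65122232, +) held an E-box at its upstream end.
MRPS17: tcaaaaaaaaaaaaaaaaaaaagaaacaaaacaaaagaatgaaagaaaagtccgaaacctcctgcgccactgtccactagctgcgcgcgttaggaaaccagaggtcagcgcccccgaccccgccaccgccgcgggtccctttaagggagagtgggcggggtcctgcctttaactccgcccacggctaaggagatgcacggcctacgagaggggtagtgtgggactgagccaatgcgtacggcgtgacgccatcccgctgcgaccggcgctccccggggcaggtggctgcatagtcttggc
MRPS12: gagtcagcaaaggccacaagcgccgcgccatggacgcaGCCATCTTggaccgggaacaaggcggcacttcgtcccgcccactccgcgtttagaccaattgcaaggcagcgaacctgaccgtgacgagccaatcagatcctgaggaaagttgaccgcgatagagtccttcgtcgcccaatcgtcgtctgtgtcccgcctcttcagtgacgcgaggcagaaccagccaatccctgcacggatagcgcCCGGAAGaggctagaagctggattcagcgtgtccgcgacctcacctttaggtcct
MRPS18A: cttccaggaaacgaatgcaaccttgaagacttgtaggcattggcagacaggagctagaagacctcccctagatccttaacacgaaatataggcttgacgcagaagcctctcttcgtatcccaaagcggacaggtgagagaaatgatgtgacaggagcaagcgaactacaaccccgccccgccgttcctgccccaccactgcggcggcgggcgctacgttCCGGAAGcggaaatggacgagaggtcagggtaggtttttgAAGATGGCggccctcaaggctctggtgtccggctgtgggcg
MRPL51: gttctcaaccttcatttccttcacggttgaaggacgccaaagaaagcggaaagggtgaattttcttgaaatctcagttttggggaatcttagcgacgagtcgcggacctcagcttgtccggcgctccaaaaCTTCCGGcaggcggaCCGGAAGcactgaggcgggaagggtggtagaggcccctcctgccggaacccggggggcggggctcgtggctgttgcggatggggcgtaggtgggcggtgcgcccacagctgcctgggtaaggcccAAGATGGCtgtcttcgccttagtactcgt
MRPL49: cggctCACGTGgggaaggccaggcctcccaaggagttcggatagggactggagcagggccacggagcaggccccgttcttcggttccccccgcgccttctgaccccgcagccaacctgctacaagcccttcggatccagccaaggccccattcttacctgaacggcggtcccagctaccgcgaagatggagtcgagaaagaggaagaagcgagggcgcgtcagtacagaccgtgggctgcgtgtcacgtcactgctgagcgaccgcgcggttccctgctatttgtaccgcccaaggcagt

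Mitochondrial ribosomal protein RNAs were lower after YAP1 and TAZ knockdown. Of the 76 genes, 31 (40.8%) were called lower in siYT, that is, with a fold change of 1.5 or more and an adjusted p below 0.05 by limma on log2(value + 0.5). Of all 13072 genes tested, 13.2% were called lower. In bulk RNA, fewer cells with a transcript and less of it per cell cannot be told apart. None of the 76 was called higher, against 14.1% of all genes. By the same test 2 of the 76 were higher at an unadjusted p under 0.05, against 4706 of the 13072 genes tested. Without the fold limit, 64 of 76 were lower at an adjusted p under 0.05 (84.2%, against 34.9% of all genes), 2 were higher (34.7% of all genes) and 10 did not pass. Every siYT value lay below every siCON value for 64 genes (34.7% of all genes) and above for 2 (34.1%). The fitted change was below 0 for 71 of 76 (49.7% of all genes). The median log2 fold change was -0.52, with quartiles of -0.69 and -0.32, against 0.003 over all genes tested.

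The count of calls changed with allowance for transcript length and with scaling. The genes are short, with a median transcript of 1242 bases against 3283 over all genes tested, and short transcripts were lower in siYT across the whole table. Among the 3139 tested genes under 2000 bases, 25.4% were called lower, and 26 of the 59 mitochondrial ribosomal protein genes of that length were (44.1%). With the trend over transcript length removed, 6 of 76 were called lower (7.89%), near the 9.75% of all genes, and 1 was called higher (14.7% of all genes). In that fit 48 of 76 were lower at an adjusted p under 0.05 without the fold limit (63.2%, against 31.1% of all genes) and 7 were higher. As fitted 34.7% of all genes were higher at that limit, and their share in this fit was not counted. The median was -0.23, against 0.04 over all genes in the same fit. Of the 48, 46 were also lower as fitted, and MRPL19 and MRPL42 were added. With libraries scaled to equal totals, 18 were called lower (23.7%, against 9.77% of all genes) and the median was -0.41, while the median of all genes moved to 0.11. Of all called genes 64.7% were higher in siYT under that scaling, against 51.6% as fitted.

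**Figure D1:**
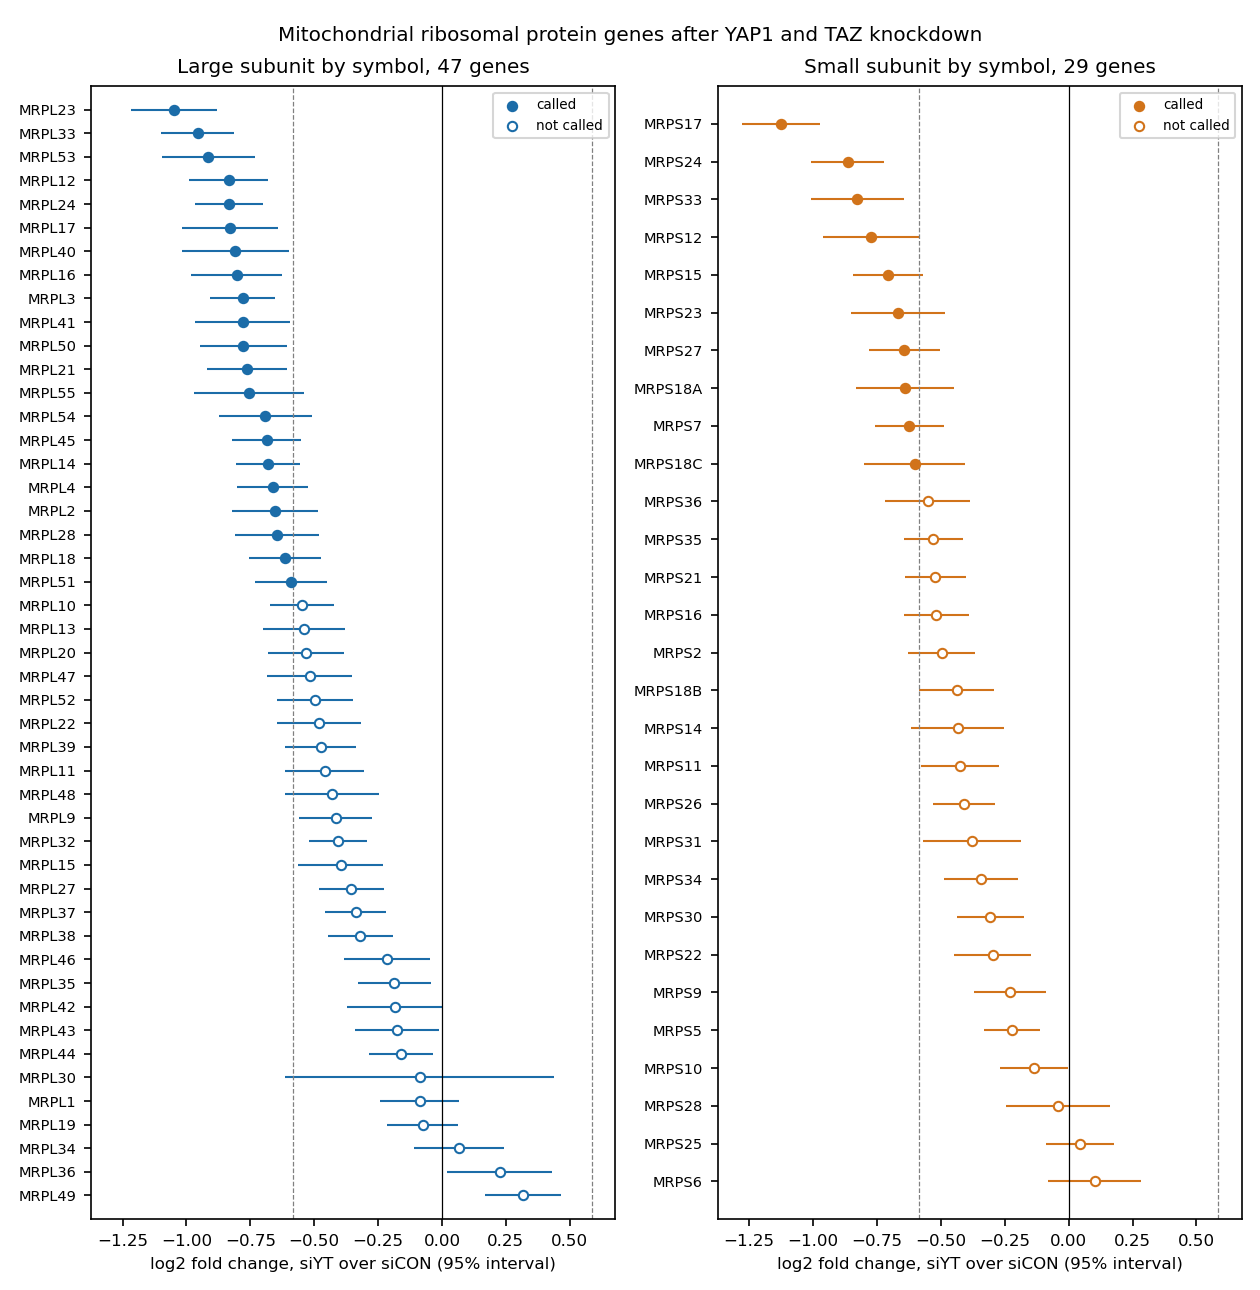
Fitted log2 fold change of each of the 76 genes, siYT over siCON, with its 95% interval, for 47 large subunit genes (left) and 29 small subunit genes (right). Filled points were called, and dashed lines mark that fold. All 31 filled points lie left of 0.

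The summed signal of the 76 genes was 1980 ± 99.4 in siYT (SD, n = 4) and 2808 ± 95.4 in siCON (SD, n = 3), 1.42-fold lower in siYT. The sum was 2041, 2086, 1876 and 1918 in siYT A to D, against 2913, 2785 and 2727 in siCON A to C, so the groups did not overlap. Within siYT the libraries were not alike: siYT C held the lowest of the 4 siYT values for 40 genes and siYT B the highest for 45. The median deviation from the siCON mean was -0.47, -0.43, -0.58 and -0.53 on the log2 scale in siYT A to D, and it lay between -0.04 and 0.05 in the siCON libraries.

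**Figure D2:**
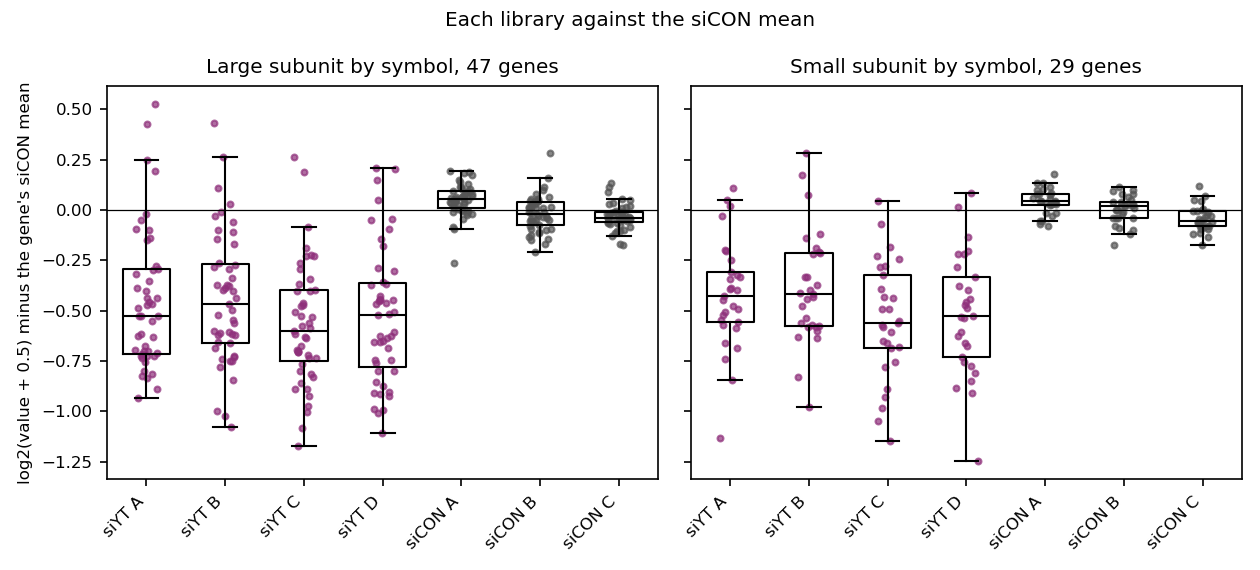
Deviation of each gene from its own siCON mean, as log2(value + 0.5), in the 7 libraries, for the large (left) and small (right) subunit. Points are genes, boxes give the quartiles and whiskers the range within 1.5 box lengths. The 4 siYT medians lie between -0.60 and -0.42 in both panels and the siCON medians near 0.

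The medians of the subunits lay close together. Of the large subunit genes 21 of 47 were called lower, with a median log2 fold change of -0.53, and of the small subunit genes 10 of 29, with a median of -0.50 (44.7% and 34.5%, against 13.2% of all genes). In the fit without the length trend 2 of 47 large (4.26%) and 4 of 29 small subunit genes (13.8%) were called lower, against 9.75% of all genes. Those counts are too small to order the subunits. Without the fold limit 61.7% of large and 65.5% of small subunit genes were lower in that fit, against 31.1% of all genes. The medians there were -0.23 and -0.25. As fitted, the difference between the medians was -0.04 (large minus small). The summed large subunit signal divided by the small was 1.40, 1.42, 1.40 and 1.42 in siYT A to D, against 1.42, 1.40 and 1.43 in siCON A to C, so the ratios overlapped. A pair of genes named for the small subunit, MRPS18A and MRPS30, encode proteins that sit in the large subunit, and MRPS36 encodes a protein now placed in the 2-oxoglutarate dehydrogenase complex. Sorted by structure, 22 of 49 large subunit and 9 of 26 small subunit genes were called lower.

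Genes with a bacterial counterpart at the same place and the others also had close medians. Of the 45 with such a counterpart 19 were called lower (42.2%), with a median of -0.52. Of the 30 others 12 were called lower (40%), with a median of -0.46. The share of all genes tested was 13.2%. The 30 include MRPS18A and MRPS18B, which are related to a bacterial protein but sit elsewhere in the ribosome. By place in the large subunit, 3 of 5 genes of the stalk were called lower (60%, median -0.69). So were 2 of 6 of the central protuberance (33.3%, -0.39) and 4 of 9 around the tunnel exit (44.4%, -0.52), against 13.2% of all genes. All 20 genes of these 3 places were lower at an adjusted p under 0.05, against 84.2% of the 76 and 34.9% of all genes. With the length trend removed 12 of the 20 were, against 63.2% of the 76 and 31.1% of all genes. The class and place of each gene were assigned from a list, and another assignment of a gene would change the counts. MRPL55, called lower at -0.75, was counted among the 30 and at none of these 3 places. These counts are descriptions, and no difference between the groups was tested.

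The largest decrease was that of MRPS17, which encodes a small subunit protein with a bacterial homologue (hg19 chromosome 7, 55954970 to 56024192, plus strand). It measured 19.5, 21.7, 19.3 and 17.9 in siYT A to D, against 42.7, 46.3 and 40.9 in siCON A to C. No value of the 2 groups overlapped, and the log2 fold change was -1.13 ± 0.07 (SE, adjusted p = 1.88e-09). It was called with the length trend removed too, at -0.92. On the same strand the span overlaps those of GBAS and ZNF713, and reads shared with them cannot be told apart.

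Next came genes of the large subunit. MRPL23, a protein at the rim of the exit tunnel (chromosome 11, 1968508 to 2005752), measured 21.6, 18.2, 17.0 and 17.8 in siYT A to D, against 41.5, 37.9 and 37.5 in siCON A to C, a log2 fold change of -1.05 ± 0.08 (adjusted p = 1.19e-08). MRPL33, a small protein with a bacterial homologue (chromosome 2, 27994584 to 28210954), measured 23.2, 21.5, 20.2 and 23.8 in siYT A to D, against 44.7, 43.1 and 42.5 in siCON A to C, a change of -0.96 ± 0.07 (adjusted p = 4.46e-09). In both genes the highest siYT value was well under the lowest siCON value. With the length trend removed neither reached the fold limit, at -0.57 for MRPL23 and -0.41 for MRPL33, and both stayed lower at an adjusted p under 0.05. The span of MRPL33 overlaps BRE on the same strand and RBKS on the opposite strand, and reads shared with them cannot be told apart.

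The stalk recruits translation factors to the ribosome. MRPL12, the protein that binds those factors and that also interacts with the mitochondrial RNA polymerase, measured 32.5, 31.7, 26.5 and 29.0 in siYT A to D, against 56.8, 50.1 and 54.1 in siCON A to C (-0.83 ± 0.07, adjusted p = 6.04e-08). MRPL53 measured 10.7, 11.4, 11.0 and 10.3 in siYT A to D, against 23.8, 18.8 and 20.3 in siCON A to C (-0.91 ± 0.09, adjusted p = 1.36e-07). In both genes every siYT library was below every siCON library. MRPL54 was called lower at -0.69. The stalk proteins MRPL10, which carries MRPL12, and MRPL11 fell by 0.55 and 0.46 on the log2 scale (adjusted p = 6.76e-07 and 4.20e-05), short of the fold limit. With the length trend removed no stalk gene was called. MRPL12 was then at -0.47, MRPL53 at -0.36, MRPL10 at -0.34 and MRPL11 at -0.22, all lower at an adjusted p under 0.05. MRPL54 was at -0.19 and did not pass (adjusted p = 0.0546). MRPL12 overlaps SLC25A10 and MRPL53 overlaps CCDC142 on the same strand.

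The exit tunnel is where the new chain leaves for the inner membrane. MRPL45, which holds the ribosome to that membrane, measured 31.9, 34.5, 31.4 and 32.6 in siYT A to D, against 52.6, 57.2 and 48.7 in siCON A to C (-0.69 ± 0.06, adjusted p = 1.19e-07). MRPL24 measured 20.3, 21.4, 19.8 and 19.2 in siYT A to D, against 37.0, 36.8 and 35.4 in siCON A to C (-0.83 ± 0.06, adjusted p = 9.69e-09). MRPL17 measured 20.9, 23.0, 18.5 and 17.5 in siYT A to D, against 39.0, 33.3 and 34.8 in siCON A to C (-0.83 ± 0.09, adjusted p = 5.87e-07). These 3 genes separate the groups without overlap, and only MRPL17 of them stayed called with the length trend removed (-0.72). MRPL44, variants of which are linked to inherited cardiomyopathy, changed least at this site, with 27.6, 27.5, 26.1 and 27.6 in siYT A to D and 31.3, 29.3 and 30.9 in siCON A to C (-0.16 ± 0.06, adjusted p = 0.0228). Its change was 0.06 with the length trend removed (adjusted p = 0.343).

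MRPL3, which reaches toward the peptidyl transferase centre, had the highest mean deposited value among the large subunit genes, with 51.9, 52.4, 47.3 and 44.9 in siYT A to D against 84.9, 85.2 and 83.5 in siCON A to C (-0.78 ± 0.06, adjusted p = 1.33e-08). MRPL51 stood just inside the fold limit, with 51.3, 54.3, 45.1 and 49.4 in siYT A to D against 78.0, 78.3 and 70.1 in siCON A to C (-0.59 ± 0.07, adjusted p = 9.51e-07). Its groups do not overlap, yet the call was lost in several other fits. MRPL37, the remaining abundant gene of this subunit, fell by 0.34 on the log2 scale (adjusted p = 6.21e-05) and was not called. With the length trend removed MRPL3 was at -0.56 and MRPL51 at -0.19, both under the fold limit. MRPL37 was then at -0.07 and did not pass (adjusted p = 0.190). MRPL40 and MRPL41, both specific to mitochondria, were called lower at -0.81 and -0.78, and at -0.36 and -0.26 neither reached the fold limit with the length trend removed.

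Among small subunit genes, MRPS24 followed MRPS17. It measured 43.0, 40.4, 36.2 and 38.2 in siYT A to D, against 77.5, 67.3 and 71.7 in siCON A to C (-0.86 ± 0.07, adjusted p = 1.52e-08), although the readthrough gene URGCP-MRPS24 shares its span. MRPS33 measured 20.6, 24.5, 17.9 and 21.2 in siYT A to D, against 38.4, 38.3 and 35.8 in siCON A to C (-0.83 ± 0.09, adjusted p = 4.14e-07). MRPS12, a protein of the decoding centre, measured 20.5, 21.4, 17.8 and 17.9 in siYT A to D, against 37.9, 29.6 and 33.2 in siCON A to C (-0.77 ± 0.09, adjusted p = 1.29e-06). In all 3 genes the siYT values lie below the siCON values. With the length trend removed MRPS33 stayed called at -0.88, while MRPS24 and MRPS12 were at -0.38 and -0.39.

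MRPS27, a pentatricopeptide repeat protein and the small subunit gene with the highest mean deposited value, measured 48.1, 47.6, 44.2 and 41.9 in siYT A to D, against 73.1, 75.2 and 65.4 in siCON A to C (-0.64 ± 0.06, adjusted p = 3.08e-07). Variants of MRPS16, MRPS22 and MRPS34 are linked to inherited defects of mitochondrial translation. The 3 genes were lower at an adjusted p under 0.05 and under the fold limit. MRPS16 fell by 0.52 on the log2 scale (adjusted p = 1.47e-06), MRPS34 by 0.34 (adjusted p = 3.23e-04) and MRPS22 by 0.30 (adjusted p = 0.00143). With the length trend removed MRPS16 was at -0.44, and MRPS34 and MRPS22 were both at 0.03 and did not pass.

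MRPS18A, MRPS18B and MRPS18C are 3 relatives of a bacterial small subunit protein. MRPS18C, the one that takes its place in the small subunit, measured 12.6, 11.1, 9.76 and 10.3 in siYT A to D, against 17.3, 17.9 and 15.3 in siCON A to C (-0.60 ± 0.09, adjusted p = 3.16e-05). MRPS18A, in the large subunit, was called lower at -0.64 ± 0.09 (adjusted p = 1.17e-05), and MRPS18B fell by 0.44 (adjusted p = 3.44e-05). MRPS30, the other protein of the large subunit with a small subunit name, fell by 0.31 (adjusted p = 3.70e-04). MRPS36 fell by 0.55 (adjusted p = 1.31e-05). Only MRPS18A and MRPS18C of these 5 genes were called. With the length trend removed neither was, at -0.31 and -0.35. MRPS18B and MRPS36 were then at -0.16 and -0.25, and MRPS30 was at -0.08 and did not pass (adjusted p = 0.266).

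**Figure D3:**
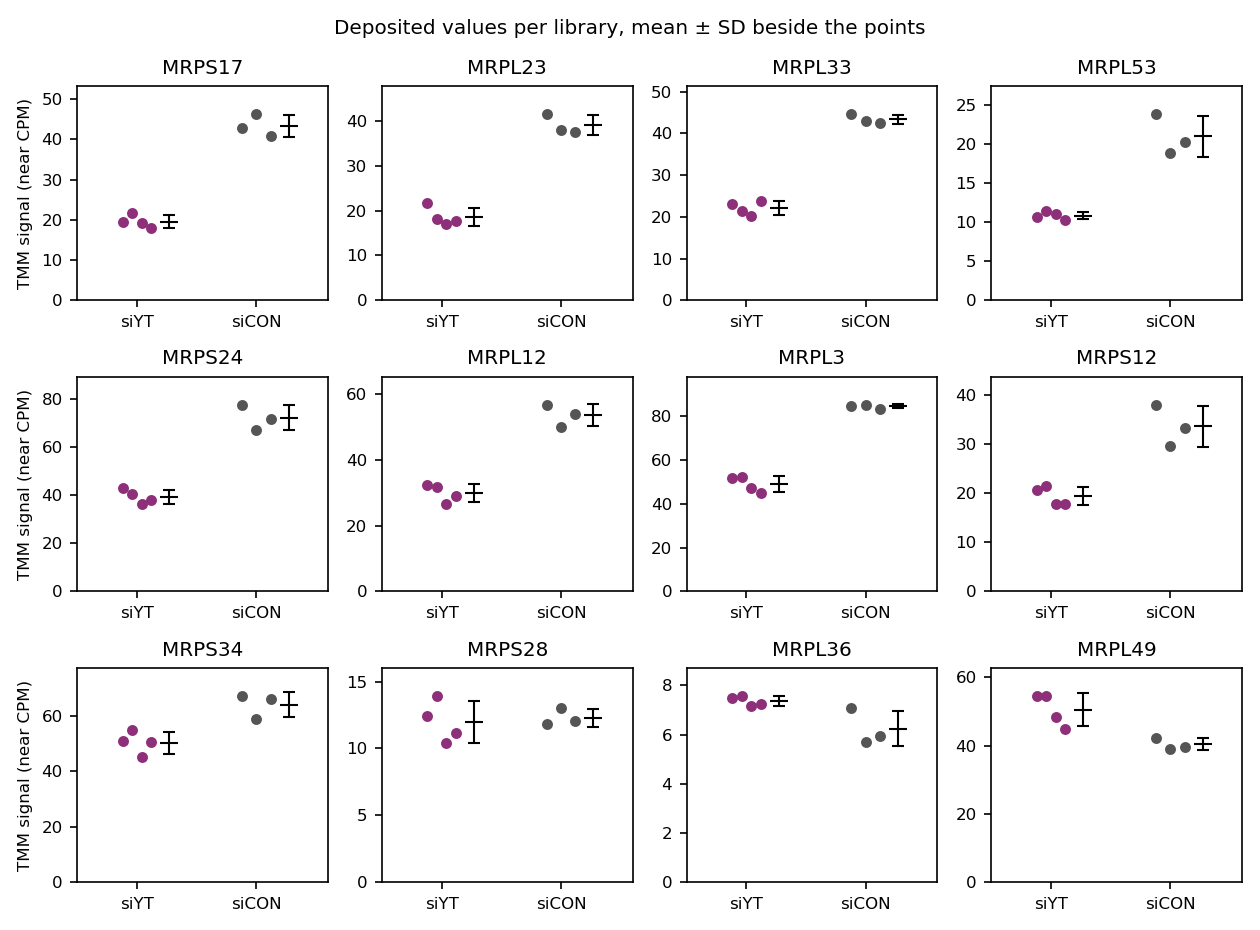
Deposited TMM signal of 12 genes in each library, siYT A to D left of siCON A to C, with the mean and SD beside the points and every axis starting at 0. MRPS17 sits at 17.9 to 21.7 in siYT and 40.9 to 46.3 in siCON, MRPS28 overlaps between groups, and MRPL49 is higher in siYT.

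A few genes did not follow the rest. MRPL49, specific to mitochondria (chromosome 11, 64889655 to 64894843), measured 54.4, 54.5, 48.4 and 44.8 in siYT A to D, against 42.3, 39.1 and 39.6 in siCON A to C (0.32 ± 0.07, adjusted p = 8.19e-04). MRPL36, a very small protein with a bacterial homologue, measured 7.47, 7.57, 7.16 and 7.24 in siYT A to D, against 7.07, 5.72 and 5.95 in siCON A to C (0.23 ± 0.10, adjusted p = 0.0483). In both genes every siYT value was above every siCON value, and neither reached the fold limit. With the length trend removed MRPL36 was called higher at 0.73 and MRPL49 stayed under the limit at 0.47. MRPL49 overlaps FAU and SYVN1, both on the opposite strand, and whether the counting used strand is not stated.

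Other genes near 0 had groups that overlapped. MRPS28 measured 12.5, 13.9, 10.4 and 11.1 in siYT A to D, against 11.8, 13.0 and 12.04 in siCON A to C (-0.04, 95% interval -0.25 to 0.16). The log2 fold change was -0.08 for MRPL19 (-0.22 to 0.06), 0.05 for MRPS25 (-0.09 to 0.18), 0.07 for MRPL34 (-0.11 to 0.24) and 0.10 for MRPS6 (-0.08 to 0.28). All 5 intervals contain 0 and none reaches the fold limit. Once the length trend was removed MRPL34 was higher at 0.51 (adjusted p = 8.06e-06), MRPS6 at 0.49 (adjusted p = 6.32e-05) and MRPS28 at 0.38 (adjusted p = 0.00150), all under the fold limit, MRPL19 was lower at -0.23 (adjusted p = 0.00444) and MRPS25 was at -0.02. MRPL30 was close to the floor of the table, with 2.48, 0.736, 1.13 and 1.89 in siYT A to D and 1.22, 2.02 and 1.54 in siCON A to C. Its interval of -0.61 to 0.44 leaves its direction undetermined. The span of MRPL30 overlaps C2orf15 and LIPT1 on the same strand and MITD1 on the opposite strand, and what this does to its value was not tested. Between the called and the flat genes lay 33 that passed the adjusted p in the lower direction but not the fold limit, 10 of them within 0.1 of it on the log2 scale.

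Per kilobase of transcript, signal ran from 0.355 for MRPL30 to 80.1 for MRPS24 as a mean over the 7 libraries. MRPS24 was at 59.1 per kilobase in siYT and 108 in siCON, and MRPL51, the next, at 55.7 in siYT and 84.1 in siCON. Lengths are those of canonical transcripts, which are long for a few genes such as MRPL42 (15557 bases), so their level per kilobase may be set too low. Across the 76 genes log2 fold change had a Pearson correlation of 0.27 with log2 transcript length, and across 12451 tested genes with a length it was 0.25. Genes share libraries and are not independent, so these are descriptions. Of the 38 genes up to the median length 21 were called lower (55.3%), with a median of -0.62. Of the 38 longer ones 10 were called lower (26.3%), with a median of -0.45. The share of all genes tested was 13.2%.

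**Figure D4:**
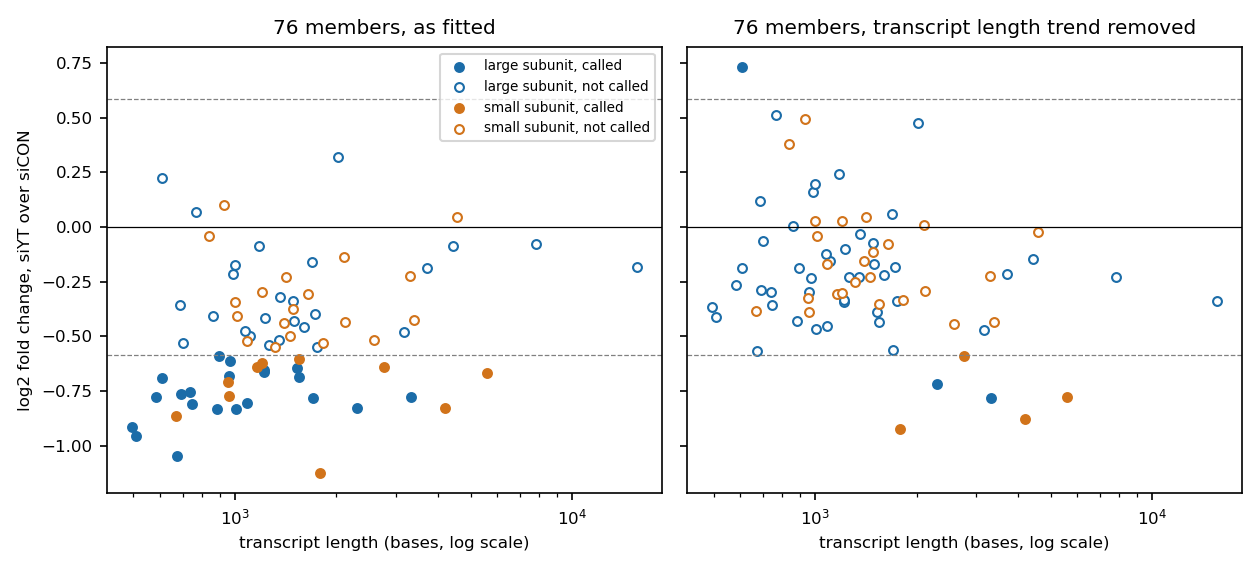
Log2 fold change, siYT over siCON, against transcript length (log scale) for the 76 genes, as fitted (left) and with the trend over transcript length of all genes removed (right). Filled points were called and dashed lines mark a fold of 1.5. Of the 31 filled points on the left 6 are still called lower on the right, where MRPL36 is called higher.

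The 6 genes called lower in both fits were MRPS17, MRPL17, MRPS33, MRPL50, MRPS23 and MRPS27. MRPL50 measured 16.6, 19.8, 16.6 and 15.5 in siYT A to D, against 29.3, 30.2 and 29.1 in siCON A to C (-0.78 ± 0.08). MRPS23 measured 24.9, 23.6, 18.4 and 22.3 in siYT A to D, against 37.6, 35.2 and 33.9 in siCON A to C (-0.67 ± 0.09). Calls were found with and without overlap with other genes. Without an overlapping gene in the table, 18 of 42 genes were called lower (42.9%, median -0.53). With one, 13 of 34 were (38.2%, median -0.51). The share of all genes tested was 13.2%. By promoter motif, the median was -0.53 with and -0.46 without ETS/GABPA, and -0.51 with and -0.50 without YY1. It was -0.49 with and -0.52 without NRF1, and -0.41 with and -0.52 without the E-box. For the TEAD motif it was -0.45 with and -0.52 without. Called lower were 3 of 10 genes with it and 25 of 57 without it, against 13.2% of all genes tested. No difference by motif was tested.

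Genes of the mitochondrial ribosome with other symbols were lower too. Of 7 such genes 4 were called lower (57.1%, against 13.2% of all genes), with a median of -0.62. ICT1 (now MRPL58), a peptidyl-tRNA hydrolase built into the large subunit, averaged 9.59 ± 0.567 in siYT and 19.8 ± 0.836 in siCON (SD, n = 4 and 3), a log2 fold change of -1.01. MRP63 (now MRPL57), AURKAIP1 and GADD45GIP1 were called lower at -0.76, -0.73 and -0.62. DAP3, a GTP-binding protein of the small subunit, fell by 0.53 and was under the fold limit, and PTCD3 was at 0.04. With the length trend removed 2 of the 7 were called lower, against 9.75% of all genes.

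Of 26 factors that assemble the ribosome 3 were called lower (RBFA, MPV17L2 and TFB1M). That is 11.5%, no more than the 13.2% of all genes tested, and the count was 1 with equal library totals (9.77% of all genes). Their median was -0.26, and -0.14 with the length trend removed. RBFA, which matures the small subunit rRNA, averaged 13.3 ± 0.405 in siYT and 24.1 ± 0.843 in siCON (-0.83 ± 0.07, adjusted p = 2.70e-08). Of 16 translation factors and mRNA-binding partners 5 were called lower (31.25%, against 13.2% of all genes), with a median of -0.29. When the length trend was removed 3 were called lower, against 9.75% of all genes. The median was then -0.31, farther from 0 than the -0.23 of the mitochondrial ribosomal protein genes. With equal library totals 1 was called lower, against 9.77% of all genes. The 5 were SLIRP, which stabilizes mitochondrial mRNAs, the elongation factors TUFM (-0.69) and TSFM (-0.64), the initiation factor MTIF2 (-0.67) and the recycling factor MRRF (-0.59). SLIRP changed most, with 12.6 ± 1.47 in siYT and 25.5 ± 0.898 in siCON (SD, n = 4 and 3).

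Among 14 measured regulators of mitochondrial gene expression and biogenesis the median was -0.01, with 2 called lower (14.3%, near the 13.2% of all genes) and 1 higher. Without the fold limit 4 were lower and 4 higher at an adjusted p under 0.05. With the length trend removed 1 was called lower and 0 higher, against 9.75% and 14.7% of all genes, and the median was 0.02. MYC, a transcription factor known to drive ribosome and mitochondrial biogenesis, averaged 99.5 ± 9.59 in siYT and 200.3 ± 8.19 in siCON (-1.01 ± 0.07, adjusted p = 2.30e-09). TFB2M, needed to start mitochondrial transcription, was called lower at -0.65. PPARGC1B, a co-activator with a transcript of 10569 bases, was called higher at 0.67, a call lost with the length trend removed. TFAM, which packages mitochondrial DNA, averaged 39.2 ± 2.96 in siYT and 39.6 ± 2.14 in siCON and was at -0.02. Among factors whose motifs were searched in the promoters, 3 were higher in siYT and under the fold limit, GABPA at 0.25 (adjusted p = 9.15e-04), YY1 at 0.26 (adjusted p = 7.74e-04) and NRF1 at 0.29 (adjusted p = 0.00822). Each was higher in all 4 siYT libraries than in any siCON library. Their transcripts, of 5226, 6534 and 3518 bases, are longer than the median of 3283 over all genes tested, and the part of length was not tested.

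The RNAs that the mitochondrial ribosome reads were lower too. Of 13 mitochondrially encoded mRNAs 11 were called lower (84.6%, against 13.2% of all genes), with a median of -0.88. With the length trend removed 2 of the 13 were called lower, against 9.75% of all genes, and the median was -0.43. MT-CO2, a subunit of cytochrome c oxidase, averaged 2724 ± 251 in siYT and 5849 ± 742 in siCON (-1.10 ± 0.10, adjusted p = 6.71e-08). The rRNAs of the same ribosome were looked at after their values were seen: MT-RNR2, of the large subunit, was at -0.59 and MT-RNR1, of the small subunit, at -0.20. With the length trend removed 0 of these 2 were called lower, against 9.75% of all genes, and their median was -0.08. With equal library totals 0 were called lower, against 9.77% of all genes. Polyadenylated RNA was selected, so the rRNA values come from what passed that step. Of 76 nuclear subunits of the respiratory chain and ATP synthase 20 were called lower (26.3%, against 13.2% of all genes), with a median of -0.44. With the length trend removed 1 of the 76 was called lower, a smaller share than the 9.75% of all genes, and the median was -0.13. COX7A2, COX6A1 and COX5B, all subunits of cytochrome c oxidase, were at -0.85, -0.81 and -0.81.

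RNAs for proteins of the cytosolic ribosome were lower as well. Of 79 genes 69 were called lower (87.3%, against 13.2% of all genes), with a median of -0.76. With the length trend removed 25 were called lower, against 9.75% of all genes, with a median of -0.34. RPS2, of its small subunit, averaged 826 ± 66.5 in siYT and 2242 ± 179 in siCON (-1.44 ± 0.07, adjusted p = 1.38e-10). Many of these genes have processed pseudogenes, so their values are less certain. The median transcript length was 785 bases in this list, 784 for mitochondrially encoded mRNAs and 783.5 for nuclear respiratory chain subunits, all shorter than the 1242 bases of the mitochondrial ribosomal protein genes. No difference between lists was tested.

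**Figure D5:**
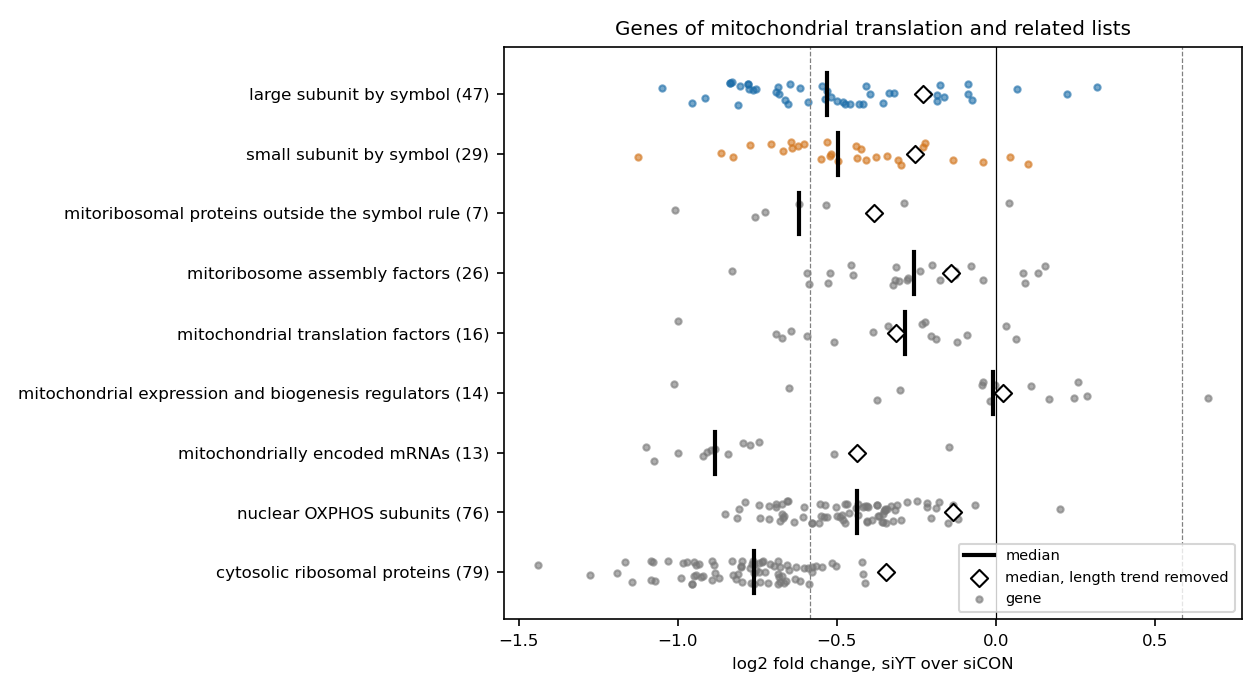
Log2 fold change, siYT over siCON, of the genes of each list (points), with the list's median (bar) and its median with the transcript length trend removed (diamond), and the number of genes in brackets. Dashed lines mark a fold of 1.5. Medians as fitted run from -0.88 for mitochondrially encoded mRNAs to -0.01 for regulators, and every median but that of the translation factors lies nearer to 0 or above it with the trend removed.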

How the data were processed

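RNA-seq values of 7 N/TERT2G libraries were used as deposited. Per the labels' processing notes, cutadapt 1.18, STAR 2.6.1, Partek 8.0.19.0819 and hg19 were used. The study also lists Trimmomatic. The authors removed low genes and scaled by TMM, so the deposited values are a normalized signal, not counts, and no count model was fitted. Of low values 82.3% lay within 0.05 of a whole multiple of the lowest. The authors' own comparison (p-values, fold changes) was not used.

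Of 18478 entries, 1792 identical repeats were dropped. Genes averaging at least 1 (13072) were fitted as log2(value + 0.5) with limma 3.58.1 (R 4.3.3, trended empirical Bayes, Benjamini-Hochberg over all genes), and called at a fold of 1.5 or more with an adjusted p below 0.05, the study's thresholds. The scale understates changes of low genes. The script was tested on simulated data. Lengths are GENCODE canonical transcripts (14734 symbols, 88.3%). The length trend was a loess fit (span 0.3) per library. Fold changes are siYT over siCON.

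Named genes were the 10 largest calls per direction, the 3 largest changes per direction, 3 most abundant and 2 nearest 0 in each subunit, genes of known role, and up to 4 called genes per related list. MRPL30, MRPL42, MRPL50, MRPL54, MRPS23, DAP3, PTCD3, MRRF, TFAM, GABPA, YY1 and NRF1 were named after their values were seen. The genes, lists, motifs and tests were chosen with earlier results of these data known. Alternatives covered pseudocount, filter, scaling, variance model, length, replicates and, chosen after seeing the data, GC content.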

Additional observations from a re-analysis of the deposited data

Results flagged for a closer look

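Among the 4 siYT libraries, MRPL37 in siYT B measured 49.9, set apart from the other 3 by 0.862 of the group's range. MRPL44 in siYT C measured 26.1, set apart by 0.929 of the range. Both pass the 95% critical value of Dixon's test. The test was applied to 35 genes, and chance passes it in about 1 of 20 groups.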

How the results depend on the processing

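Leaving out 1 library at a time gave 26 (without siCON A) to 33 (without siYT B) genes called lower, against 31, and medians of -0.54 to -0.49. MRPS28 ranged over -0.11 to 0.021 and MRPL34 over -0.0081 to 0.14. Pseudocounts, filters, median-ratio and upper-quartile scaling, other variance models, averaging siYT A and B, and the GC trend gave 28 to 31. With the transcript length trend removed 6 were called lower and 1 higher, the medians were -0.23 (all), -0.23 (large) and -0.25 (small), and large minus small turned to 0.024, against -0.04. MRPL44 (0.060), MRPS22 (0.025), MRPS25 (-0.022), MRPS28 (0.38) and MRPS34 (0.029) changed sign there. With equal library totals 18 were called lower, the medians were -0.41, -0.42 and -0.39, and MRPL19 (0.035) and MRPS28 (0.066) changed sign. The causes were not tested. Whether the letters pair the libraries is not settled. Correlations of deviations were 0.16, 0.03 and 0.18 for A, B and C, and ran from -0.21 to 0.18 between different letters. With the replicate letter as a block 30 genes were called lower, without MRPS18C, and the median was -0.50. MRPL51 and MRPS18C lost their call most often. At its low values MRPL30 is not resolved.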
